A study of Mus musculus with 8 samples.

Results

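The genes described here handle iron in mouse mammary carcinoma cells, from its uptake through its storage to its export. They are 9 genes chosen by symbol: Tfrc, Scara5, Slc11a2, Steap3, Fth1, Ftl1, Slc40a1, Hmox1 and Ireb2. They account for 9 of the 19057 genes and 20 of the 45281 probes on the Illumina MouseWG-6 v2.0 BeadChip, a bead array that reads each transcript with one or more short probes. The choice was made with the line differences on these same arrays already known, and which of them it drew on is not recorded. Every difference between lines given for these 9 genes is therefore a description and carries no test.

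RNA came from 8 cultures of 3 related lines: 2 of the D2A1-m1 subline, 3 of the D2A1-m2 subline and 3 of the parental D2A1 line. D2A1 is a poorly metastatic mammary carcinoma line of BALB/c mouse origin. The metastatic sublines were derived from it independently, each through a mammary fat pad tumour, outgrowth of tumour cells from the lung and 3 rounds of tail vein inoculation, with 1 mouse at each passage, so that each subline stands for 1 line of descent. The study calls the cultures independent biological replicates. All 3 lines were present in each of the 2 array batches. Batch 1 held D2A1 replicates 1 and 2 and replicate 1 of each subline. Batch 2 held D2A1 replicate 3, D2A1-m1 replicate 2 and D2A1-m2 replicates 2 and 3. Every difference given within a batch therefore rests on 1 array in at least 1 of the lines compared.

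Cells take up most of their iron as transferrin, which binds the transferrin receptor and enters endosomes, where the iron is released, reduced and passed to the cytosol. Iron that is not used at once is stored inside the ferritin shell, and any surplus leaves through ferroportin, the only known iron exporter of mammalian cells. The iron-regulatory proteins sense cytosolic iron and act on hairpins in the messenger RNAs, protecting the transferrin receptor transcript and holding back ferritin and ferroportin translation when iron is low. Much of this control therefore acts on translation and protein turnover, which an array does not read. In breast tissue, ferroportin and the transferrin receptor have been studied as markers of the iron demand of tumour cells.

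The arrays were alike in breadth. A probe was called detected on an array when the detection p, which sets its signal against that array's negative controls, did not exceed 0.01. Such probes numbered 13618 to 14625 on D2A1-m1 arrays, 13768 to 14942 on D2A1-m2 arrays and 13419 to 14387 on D2A1 arrays, and replicate arrays of 1 line correlated between 0.976 and 0.994 over the 9017 genes tested. Of the simple epithelial keratins, Krt8 and Krt18 were detected in all 3 lines, with Krt8 at 738 to 847 in D2A1-m1, 847.1 to 942.6 in D2A1-m2 and 90.9 to 138.2 in D2A1, and Krt18 at 334.7 to 424.7 in D2A1-m1, 202.2 to 251.7 in D2A1-m2 and 354.6 to 490.2 in D2A1. Of the other epithelial markers, Epcam, Cdh1, Krt19, Krt5 and Krt14 were detected on no array, and Krt7 on 1 D2A1 array. Levels not marked as log2 are deposited intensities, and differences are on the log2 scale after normalization, as fitted with line and batch.

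Of the 20 probes, 15 were detected on at least 1 array, 11 on all 8 arrays and 5 on none. Each of the 9 genes kept at least 1 detected probe and was among the genes tested. Where a gene kept several probes, as 5 of the 9 did, the one with the widest interquartile range stood for it, and the others are described beside it. Relative to parental D2A1 cells, 3 of the 9 genes in D2A1-m1 and 2 of the 9 in D2A1-m2 passed the limits used for all genes, an adjusted p under 0.05 and a difference of at least 1.5-fold, and 2 of the 9 did so between the sublines. Over all 9017 genes, 14.6%, 16.2% and 4.27% passed in these comparisons, and because these comparisons were known when the genes were chosen nothing is read from the counts. Scara5 passed in all 3 comparisons with the higher level in D2A1-m1, or in D2A1-m2 against D2A1, and Slc11a2 passed in D2A1-m1 against D2A1, while over all genes 7.72%, 8.87% and 2% were called higher. Slc40a1 passed as lower in all 3, where 6.84%, 7.34% and 2.27% of all genes did.

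**Figure D1:**
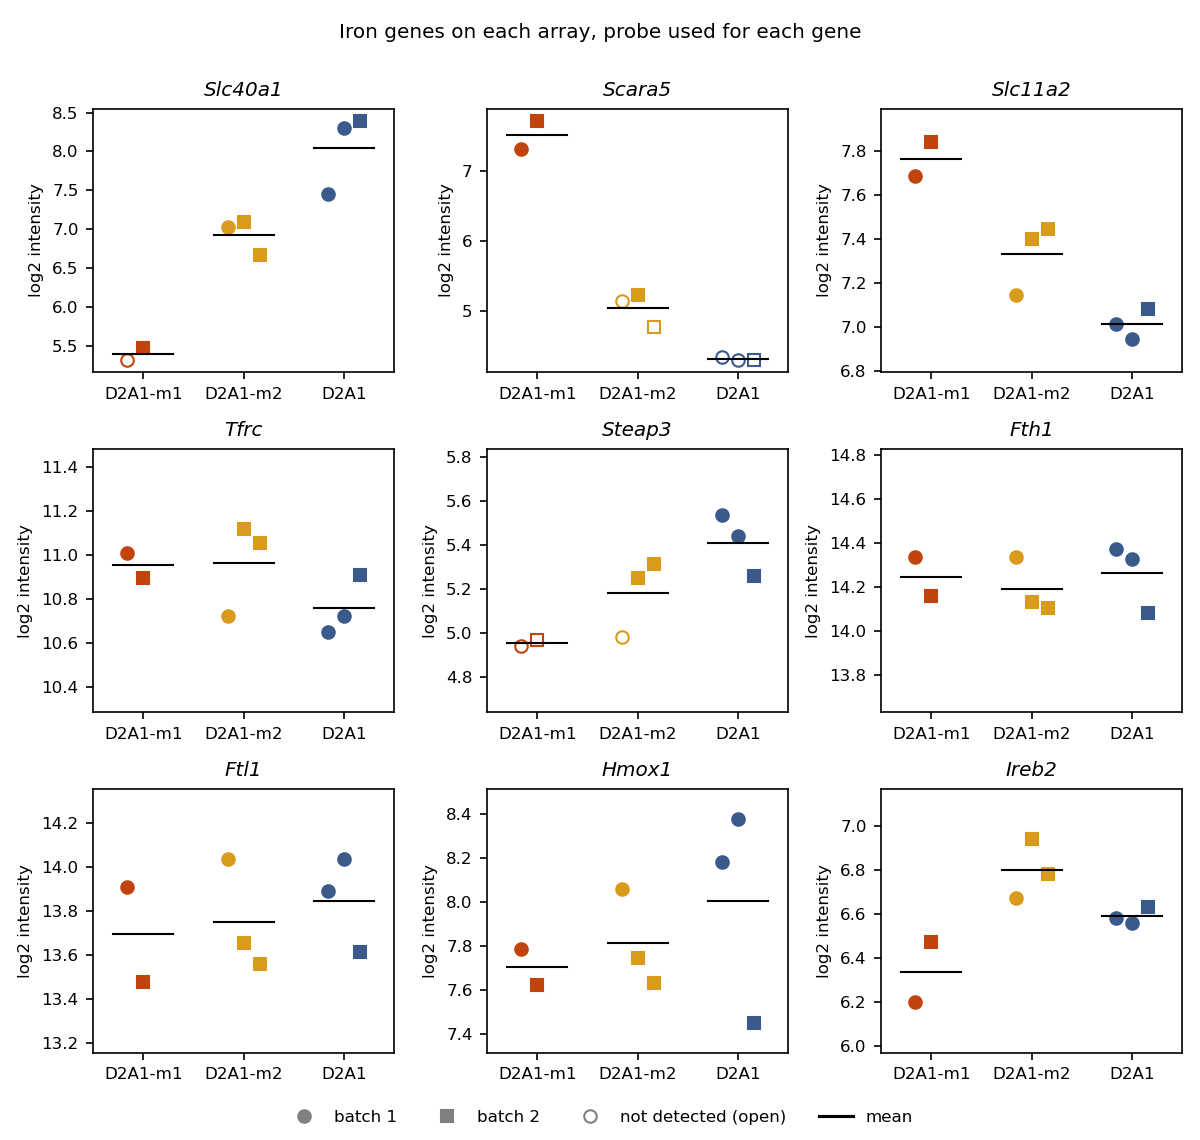
Normalized log2 intensity (vertical axis) of the probe used for each of the 9 iron genes, with 1 point per array, circles for batch 1, squares for batch 2, open symbols where the probe was not detected and a bar at the line mean. Slc40a1 was lowest in D2A1-m1 and highest in D2A1, Scara5 showed the opposite order, and the ferritin chains Fth1 and Ftl1 overlapped between lines.

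Slc40a1 encodes ferroportin, the iron exporter, and had the lowest signal in D2A1-m1 and the highest in parental D2A1 cells. Its intensities were 76.2 and 85.5 on the D2A1-m1 arrays, 152.8, 191.1 and 153.3 on the D2A1-m2 arrays, and 176.6, 297.8 and 391.9 on the D2A1 arrays. The D2A1-m1 arrays lay below all others. One of them, replicate 1, fell just outside the detection limit at a detection p of 0.0118. In deposited intensities, D2A1-m2 replicate 2 exceeded D2A1 replicate 1, while after normalization the 3 lines did not overlap.

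On the log2 scale Slc40a1 averaged 5.39 ± 0.11 in D2A1-m1 (SD, n = 2), 6.93 ± 0.23 in D2A1-m2 (SD, n = 3) and 8.05 ± 0.52 in D2A1 (SD, n = 3). The fitted difference was −2.69 (SE 0.26) for D2A1-m1 against D2A1, a 6.43-fold lower level, with −2.56 within batch 1 and −2.92 within batch 2. For D2A1-m2 against D2A1 it was −1.18 (SE 0.24), a 2.26-fold lower level, with −0.85 and −1.52 within batches 1 and 2. D2A1-m1 also lay below D2A1-m2, by a difference of −1.51 (SE 0.26) or 2.84-fold, and −1.72 and −1.40 within the batches. The widest spread was within the parental line, where replicate 1 stood at 7.45 and replicates 2 and 3 at 8.30 and 8.40. Without D2A1 replicate 3, the difference of D2A1-m2 from D2A1 was −0.94 and missed the limits. That between the sublines missed them without D2A1-m1 replicate 1 or 2 or D2A1-m2 replicate 1 or 2, at values no nearer to 0 than −1.30. In bulk RNA, fewer cells with the transcript and less of it per cell cannot be told apart.

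The size of the Slc40a1 difference depended on the processing, while its direction did not. In the deposited processed values, made with a variance-stabilising transformation, it was −1.16 for D2A1-m1 against D2A1, −0.66 for D2A1-m2 against D2A1 and −0.50 between the sublines. Without background correction it was −1.98, −0.98 and −0.99. A second Slc40a1 probe was detected on no array and gives no level.

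Scara5, a scavenger receptor known in mouse to bind ferritin and bring its iron into the cell, ran the other way. Its intensities were 190.8 and 277.2 on the D2A1-m1 arrays, 70.8, 76.1 and 64.2 on the D2A1-m2 arrays, and 47.8, 46.6 and 46.3 on the D2A1 arrays. The D2A1-m1 arrays stood well above the rest, and the lines did not overlap. The probe was detected on both D2A1-m1 arrays, on 1 of 3 D2A1-m2 arrays and on no D2A1 array.

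On the log2 scale Scara5 averaged 7.51 ± 0.28 in D2A1-m1 (SD, n = 2), 5.05 ± 0.24 in D2A1-m2 (SD, n = 3) and 4.32 ± 0.02 in D2A1 (SD, n = 3). Since no parental array detected it, its level in D2A1-m1, as normalized here, was at least 4.59-fold higher than in D2A1. For such a bound, each array of the dimmer line took the lowest value among its detected probes, or the probe's own value if that was higher, and the mean of these was compared with the mean in the other line. D2A1-m2 passed the limits against D2A1, yet its mean did not clear that floor and no fold is given. Against D2A1-m2, of which 1 of 3 arrays detected the probe, D2A1-m1 differed by 2.47 (SE 0.17) in the fitted values, with 2.17 and 2.71 within batches 1 and 2. The fitted difference of D2A1-m1 from D2A1 moved with the processing, and was 3.18 as normalized here. It was 2.18 when the background was left uncorrected and 1.99 when the offset was raised to 50. In the deposited processed values it was 1.05. These lower values all lay below the size of the bound, the first of them only just. For the pair of sublines the deposited processed values gave 0.90.

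The other Scara5 probe, annotated to a separate cDNA clone, did not follow this pattern. It read 74.2 and 63.4 on the D2A1-m1 arrays, 82.5, 71.6 and 71.1 on the D2A1-m2 arrays, and 66.6, 63.5 and 69.5 on the D2A1 arrays. Only D2A1-m2 replicate 1 detected it, so the Scara5 difference rests on 1 probe.

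Fibroblasts also express Scara5, and macrophages are rich in ferroportin, so the markers of both were read beside these genes. Of the 10 fibroblast markers, Pdgfra and Fbln1 were detected on every array, Col1a1 on 1 D2A1-m2 array, and Dcn, Lum and Col3a1 on none. The summed intensity of the 10 was 902.5 to 952.3 in D2A1-m1, 824 to 842.4 in D2A1-m2 and 612.6 to 651.4 in D2A1, which is the order of Scara5. Of 10 macrophage markers, Cd14 was detected on every array and the other 9, Ptprc, Csf1r and Lyz2 among them, on none, with sums of 875.9 to 1309.8 in D2A1-m1, 753.8 to 949.5 in D2A1-m2 and 628.5 to 809.2 in D2A1. The macrophage sums ran opposite to Slc40a1, with overlap between lines, and the 1 detected marker, Cd14, read 404.1 to 810.9 in D2A1-m1, 247.7 to 461.8 in D2A1-m2 and 134.6 to 330.5 in D2A1. In the fibroblast sums Fbln1 read 350.4 to 382 in D2A1-m1, 286.6 to 312.9 in D2A1-m2 and 136.1 to 146.1 in D2A1. No endothelial marker was detected. The part of the fibroblast and macrophage markers in either result was not tested.

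**Figure D2:**
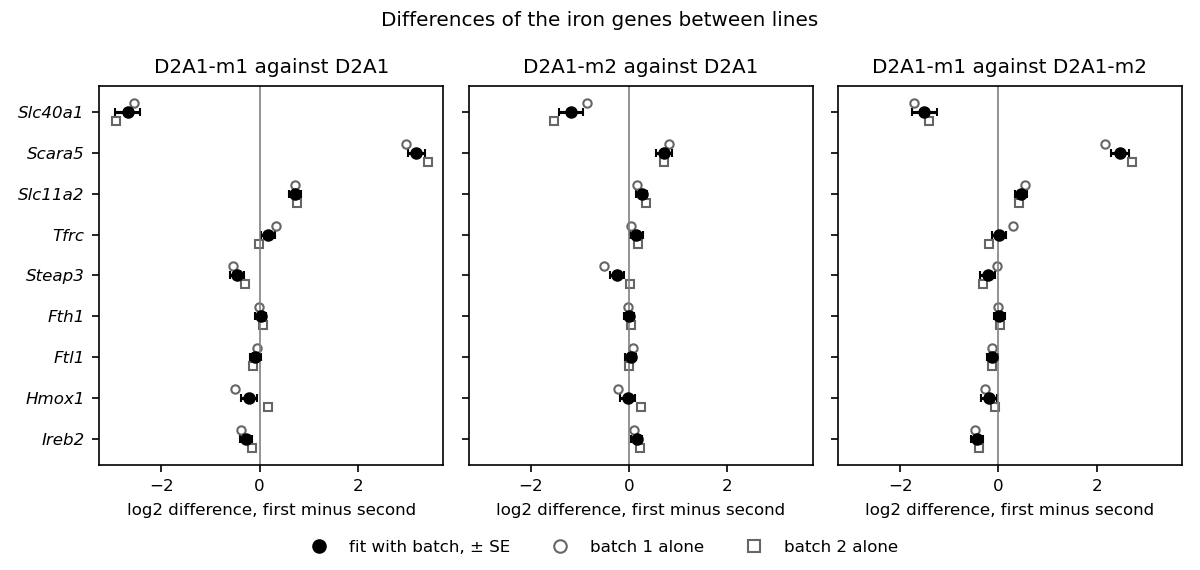
Log2 difference (horizontal axis) of each iron gene for each subline against the parental line and for D2A1-m1 against D2A1-m2, as fitted with the batch (filled, ± SE) and within batch 1 (open circles) or batch 2 (open squares). Slc40a1 lay left of 0 and Scara5 and Slc11a2 right of 0 in both batches and all 3 comparisons, the values of Scara5 against D2A1 being fitted ones from a line that did not detect it.

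Slc11a2 encodes the divalent metal transporter that moves ferrous iron across the endosomal membrane, and was highest in D2A1-m1. The probe used read 237.7 and 301.4 on the D2A1-m1 arrays, 161.9, 229.2 and 236 on the D2A1-m2 arrays, and 139.6, 138.2 and 176 on the D2A1 arrays. D2A1-m1 lay above both other lines, and in deposited intensities D2A1-m2 replicate 1 fell within the parental range. The log2 means were 7.76 ± 0.11 in D2A1-m1 (SD, n = 2), 7.33 ± 0.16 in D2A1-m2 (SD, n = 3) and 7.01 ± 0.07 in D2A1 (SD, n = 3). D2A1-m1 differed from D2A1 by 0.72 (SE 0.12), or 1.65-fold, with 0.71 and 0.76 within the batches. D2A1-m2 differed from D2A1 by 0.26 (SE 0.11) and D2A1-m1 from D2A1-m2 by 0.46 (SE 0.12), both under the 1.5-fold limit.

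Of the other Slc11a2 probes, both detected on all 8 arrays, one differed by 0.29 in D2A1-m1 and 0.53 in D2A1-m2 against D2A1, and by −0.23 in D2A1-m1 against D2A1-m2. The other differed by 0.29, −0.02 and 0.31 in the same comparisons. All 3 probes were thus higher in D2A1-m1 than in D2A1, but they put the sublines in different orders. Slc11a2 is known to give transcripts with alternative ends, and which of them each probe reads was not established here. In the deposited processed values the probe used differed by 0.38 in D2A1-m1 against D2A1 and did not pass. With median scaling the interquartile range picked another of the 3 probes, which differed by 0.41 and did not pass either.

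**Figure D3:**
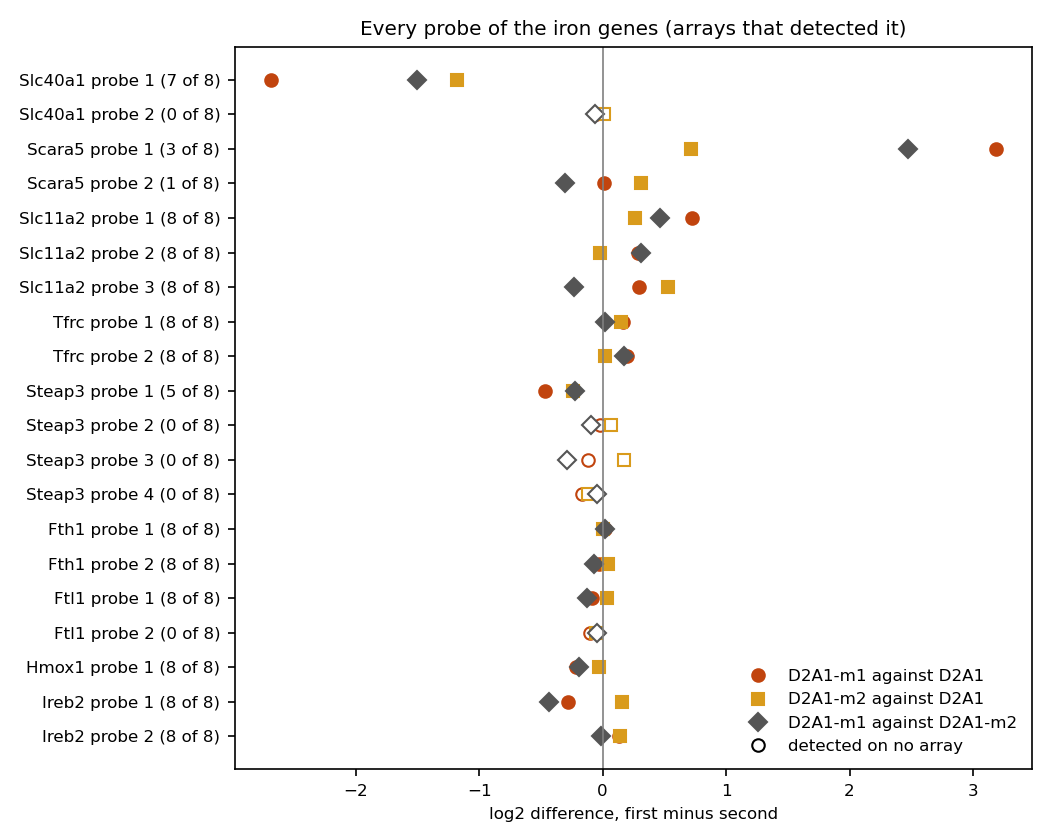
Log2 difference (horizontal axis) of every probe of the 9 iron genes in the 3 comparisons, 1 row per probe with the number of arrays that detected it, open symbols marking probes detected on no array. The first Slc40a1 and Scara5 probes stood apart from the second ones, which were detected on 0 and 1 of 8 arrays, while the pairs of Tfrc and Fth1 probes lay close together.

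Tfrc, the transferrin receptor, was bright in every line and differed little. Its used probe read 2029.5 and 2251.8 on the D2A1-m1 arrays, 1529.5, 2588.4 and 2399.3 on the D2A1-m2 arrays, and 1361.2, 1454 and 2079.8 on the D2A1 arrays. The lines overlapped, with the batch 2 arrays mostly above those of batch 1. The difference was 0.16 (SE 0.14) for D2A1-m1 against D2A1 and 0.15 (SE 0.13) for D2A1-m2 against D2A1, and a second probe gave 0.20 and 0.02. Normalized values of that second probe in D2A1-m1, the lowest at 11.08, stood just above those in D2A1, the highest at 11.06. Within batch 1 D2A1-m1 stood 0.33 above D2A1 and within batch 2 at −0.01.

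Steap3, the ferrireductase that reduces iron in endosomes so that the metal transporter can carry it, sat at the edge of detection. The only one of its 4 probes with any detection read 67.4 and 69.2 on the D2A1-m1 arrays, 67.4, 76.8 and 79.5 on the D2A1-m2 arrays, and 75.5, 74.5 and 73.5 on the D2A1 arrays. It was detected on no D2A1-m1 array, on 2 of 3 D2A1-m2 arrays and on all 3 D2A1 arrays. As normalized here, its level in D2A1-m1 was at least 1.13-fold lower than in D2A1. The fitted difference was −0.46 (SE 0.15) and did not pass the limits. In the deposited processed values it was −0.09, which is smaller than the bound. The difference between D2A1-m2 and D2A1 was −0.24 (SE 0.14), with −0.51 within batch 1 and 0.02 within batch 2.

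The ferritin subunits, the heavy chain Fth1 with its ferroxidase centre and the light chain Ftl1, were among the brightest signals on every array. The used Fth1 probe ranked between place 30 and place 71 of the 45281 probes by intensity, a second Fth1 probe between 3 and 20, and the detected Ftl1 probe between 78 and 164. Quantile normalization sets such values by rank, and how far it narrowed differences between lines was not tested. Normalized Ftl1 values ranged from 13.47 to 14.04 across arrays, but this followed the batch, with a fitted effect of −0.40 for batch 2 against batch 1. That range does not show whether differences between lines were narrowed. Fth1 averaged 14.25 ± 0.12 in D2A1-m1 (SD, n = 2), 14.19 ± 0.13 in D2A1-m2 (SD, n = 3) and 14.26 ± 0.16 in D2A1 (SD, n = 3). Ftl1 averaged 13.69 ± 0.31, 13.75 ± 0.25 and 13.85 ± 0.21 in D2A1-m1, D2A1-m2 and D2A1. Fitted differences of Fth1 and Ftl1 lay between −0.12 and 0.04 in the 3 comparisons with standard errors of 0.11 to 0.12, and the lines overlapped throughout. With median scaling, where the second Fth1 probe stood for the gene, the difference was 0.11 for D2A1-m2 against D2A1 and −0.19 for D2A1-m1 against D2A1-m2.

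Hmox1, the inducible heme oxygenase that frees iron from heme, was read by 1 probe at 250.3 and 263.4 on the D2A1-m1 arrays, 271.7, 282.6 and 263.3 on the D2A1-m2 arrays, and 272.2, 312.5 and 217 on the D2A1 arrays. The parental arrays spanned both sublines. D2A1-m1 differed from D2A1 by −0.22 (SE 0.17), but by −0.49 within batch 1 and 0.17 within batch 2. For D2A1-m2 against D2A1 the difference was −0.03 (SE 0.15), with −0.22 and 0.24 within the batches. The sign thus differed between the batches in both comparisons. In batch 2 the parental line was replicate 3 alone, which read 217, so batch and replicate cannot be told apart.

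Ireb2 encodes one of the iron-regulatory proteins that bind iron-responsive hairpins. Its used probe read 108.9 and 138.9 on the D2A1-m1 arrays, 128.2, 175.4 and 163.1 on the D2A1-m2 arrays, and 112.7, 116 and 138 on the D2A1 arrays. Normalized, D2A1-m1 lay lowest at 6.34 ± 0.19 (SD, n = 2), with D2A1-m2 at 6.80 ± 0.13 and D2A1 at 6.59 ± 0.04 (SD, n = 3 each). The differences were −0.28 (SE 0.12) for D2A1-m1 against D2A1, 0.15 (SE 0.11) for D2A1-m2 against D2A1 and −0.44 (SE 0.12) between the sublines. The other Ireb2 probe gave 0.13, 0.14 and −0.01, so the lower value in D2A1-m1 was seen with 1 of 2 probes.

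As a group, the 9 genes had a median difference of −0.09 in D2A1-m1 against D2A1, 0.04 in D2A1-m2 against D2A1 and −0.12 between the sublines, beside medians over all genes of 0.01, −0.00 and 0.01. The arrays of the lines compared did not overlap for 5, 4 and 5 of the 9 genes, where 39.5%, 36.4% and 29% of all genes tested showed the same. The genes did not move as a block. Relative to D2A1, the transcript of the exporter was lower in both sublines. Those of the ferritin receptor and the metal transporter were higher in D2A1-m1. With the probe used for each gene, the transcripts of the transferrin receptor and ferritin overlapped between lines.

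Over the 8 arrays, with the batch removed, Slc40a1 ran opposite to Slc11a2 (Pearson r = −0.983) and to Scara5 (r = −0.917), and Scara5 ran with Slc11a2 (r = 0.96). The points share 3 lines, so these values describe the order of the lines more than single cultures. Each r holds for the probe used for the gene, and the other Slc11a2 probes put the lines in different orders. The Scara5 probe was detected on no D2A1 array, so its parental values are not measured levels. The genes most like Slc40a1 among the 9017 tested were Dlx2 (r = 0.992), Ralb (0.991), Klhdc2 (0.991), Ica1 (0.986) and R3hdm1 (0.985), and 219 genes exceeded 0.9. Those most like Scara5 were Notum (r = 0.984), Pcyt1b (0.98), Map4 (0.979), Ly6c1 (0.979) and Spop (0.976), with 147 genes over 0.9.

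Promoter windows of RefSeq (250 bases before to 50 after each start, GRCm38.p6) were read for 5 of the 9 genes, Tfrc, Steap3, Fth1, Ftl1 and Ireb2, in 10 windows, and not for Slc40a1, Scara5, Slc11a2 or Hmox1. The core of the antioxidant response element, TGACNNNGC, read on both strands, was found in 0 of the 10 windows and in 12.4% of all 32851 windows. The loop letters of the iron-responsive hairpin, CAGTGN, were read on the sense strand after the start. They were found in 1 of 10, a window of Steap3, and in 7.08% of all windows. Only the 50 bases after each start were read, so a hairpin elsewhere in a transcript could not be found. A match of letters does not show a hairpin, and a miss does not show that a gene lacks one.

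The wider pathway was read from 73 other genes of iron and heme handling, of which 69 had a named probe and 46 were tested. In D2A1-m1 against D2A1, 8 of the 46 rose and 3 fell, and in D2A1-m2 against D2A1, 4 rose and 2 fell. That is 23.9% and 13.0% of the list, beside 14.6% and 16.2% of all genes. Between the sublines 1 rose in D2A1-m1 and none fell, 2.17% against 4.27%. This list too was chosen with earlier results of these data known, so nothing is read from these shares. The median difference of the list was 0.14, 0.09 and 0.06 in the 3 comparisons. All adjusted p-values for these genes come from limma, with Benjamini-Hochberg adjustment over the 9017 genes.

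Cp, ceruloplasmin, the copper ferroxidase that oxidises iron as it leaves through ferroportin, changed most among these genes. The probe used read 345.9 and 440.1 on the D2A1-m1 arrays, 314.4, 446.1 and 371.5 on the D2A1-m2 arrays, and 109.3, 152.3 and 120.4 on the D2A1 arrays. Both sublines lay above every parental array. Cp rose by 1.73 (SE 0.21), or 3.31-fold, in D2A1-m1 (adjusted p = 0.000655) and by 1.70 (SE 0.20), or 3.25-fold, in D2A1-m2 (adjusted p = 0.000397). The other 3 Cp probes moved less, the brightest of them by 0.51 in D2A1-m1 but only 0.04 in D2A1-m2. With that probe in place of the one used neither call was made.

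Among 6 tested genes of iron uptake, 4 rose in D2A1-m1 and 1 of them in D2A1-m2, where 7.72% and 8.87% of all genes rose. Steap1, of the metalloreductase family, rose by 0.71 in D2A1-m1 (adjusted p = 0.0148). Lrp1, a receptor that clears hemopexin with its heme among many other ligands, was detected on no parental array. As normalized here, it passed in D2A1-m1 and was at least 1.15-fold higher than in D2A1. It was detected on 1 of 2 D2A1-m1 arrays. In D2A1-m2, which detected it on 3 of 3 arrays, it also passed without clearing the detection floor. The metal importers Slc39a8 and Slc39a14 passed in D2A1-m1. Each was detected on 1 of 2 D2A1-m1 arrays and on no D2A1 array, so no fold is given. In D2A1-m2 they differed from D2A1 by 0.46 and 0.38 in the fitted values, under the 1.5-fold limit. Slc39a8, Slc39a14 and Lrp1 were tested only because subline arrays detected them, so no adjusted p is given for their calls. The Slc39a8 call was lost under 10 of 23 alternatives. That of Slc39a14 was lost, among other settings, when detection on at least 2 arrays was required. Slc39a14 lay outside the rule for named genes and was added after its value was seen, as was Ncoa4.

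Of 3 genes of ferritin traffic and iron chaperones, Ncoa4, the cargo receptor that takes ferritin to the lysosome, fell by 0.60 (SE 0.14, adjusted p = 0.0173) in D2A1-m1. In D2A1-m2 its difference was −0.58 (adjusted p = 0.0119), just short of 1.5-fold. All 3 of its probes were lower in both sublines than in D2A1. Of 8 regulators of iron genes, among them Aco1, Fbxl5, Hfe and Neo1, 0 passed in any of the 3 comparisons by limma. At an unadjusted p under 0.05 there were 2 in D2A1-m1 against D2A1, 3 in D2A1-m2 against D2A1 and 1 between the sublines. The methods' t-test after Benjamini-Hochberg called 0 of the regulators. By limma, Neo1 (0.57) and Hfe (0.53, adjusted p = 0.0477) in D2A1-m1 against D2A1 missed only the 1.5-fold limit. So did Bmpr1a in D2A1-m2 against D2A1 (−0.55, adjusted p = 0.0121). Neo1 was tested only because subline arrays detected it, so no adjusted p is given for it. Some alternatives called single regulators, Neo1 in D2A1-m1 without the batch term or without D2A1 replicate 2, Hfe in D2A1-m1 with median scaling, Bmpr1a in D2A1-m2 in batch 2 alone and without D2A1 replicate 1 or D2A1-m2 replicate 1, and Aco1 in D2A1-m2 in batch 2 alone and without D2A1-m2 replicate 1.

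Among 7 tested genes of heme synthesis, Cpox fell by 0.75 in D2A1-m1 (adjusted p = 0.0036) and Uros rose by 0.75 in D2A1-m2 (adjusted p = 0.00163). In D2A1-m2 the difference of Cpox was −0.42 (adjusted p = 0.0268), short of 1.5-fold. The other Uros probes gave 0.52 and 0.19 in D2A1-m2, and in D2A1-m1 the 3 probes differed in sign. Of 7 genes of heme breakdown and transport, Pgrmc1, a heme-binding membrane protein, rose by 0.69 in D2A1-m1 (adjusted p = 0.00615) and by 0.64 in D2A1-m2 (adjusted p = 0.00494). Hmox2, the constitutive heme oxygenase, fell by 0.60 (adjusted p = 0.0296) and 0.64 (adjusted p = 0.0135) in the same lines. Blvra, which reduces the biliverdin that heme oxygenases make, fell by 0.67 in D2A1-m2 (adjusted p = 0.0029). Its difference in D2A1-m1 was −0.43, short of 1.5-fold. The Hmox2 call in D2A1-m1 was lost under 14 of 23 alternatives.

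Slc48a1, which carries heme out of the lysosome, was the 1 companion gene to pass between the sublines. It read 1659.9 and 1976.8 on the D2A1-m1 arrays, 955.4, 1059.9 and 980.4 on the D2A1-m2 arrays, and 779, 1161.6 and 885.2 on the D2A1 arrays. D2A1-m1 lay above both other lines, which overlapped. It rose by 0.83 (SE 0.18) in D2A1-m1 against D2A1-m2 (adjusted p = 0.0358) and by 0.80 (SE 0.18) against D2A1 (adjusted p = 0.0143). The call between sublines was lost when any 1 of the 5 subline arrays was left out. Of 13 mitochondrial genes of iron and iron-sulphur clusters, Isca1, a cluster assembly factor, rose in D2A1-m1, by 0.61 (adjusted p = 0.0103). In D2A1-m2 its difference was 0.57 (adjusted p = 0.0079), just short of 1.5-fold. It passed there under 6 of 23 alternatives, and the sublines differed by 0.04. A second Isca1 probe gave 0.50 in D2A1-m1 and 0.38 in D2A1-m2 against D2A1. By limma 0 of the 13 passed in D2A1-m2, where 1 had an unadjusted p under 0.05 and the methods' t-test after Benjamini-Hochberg also called 0.

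**Figure D4:**
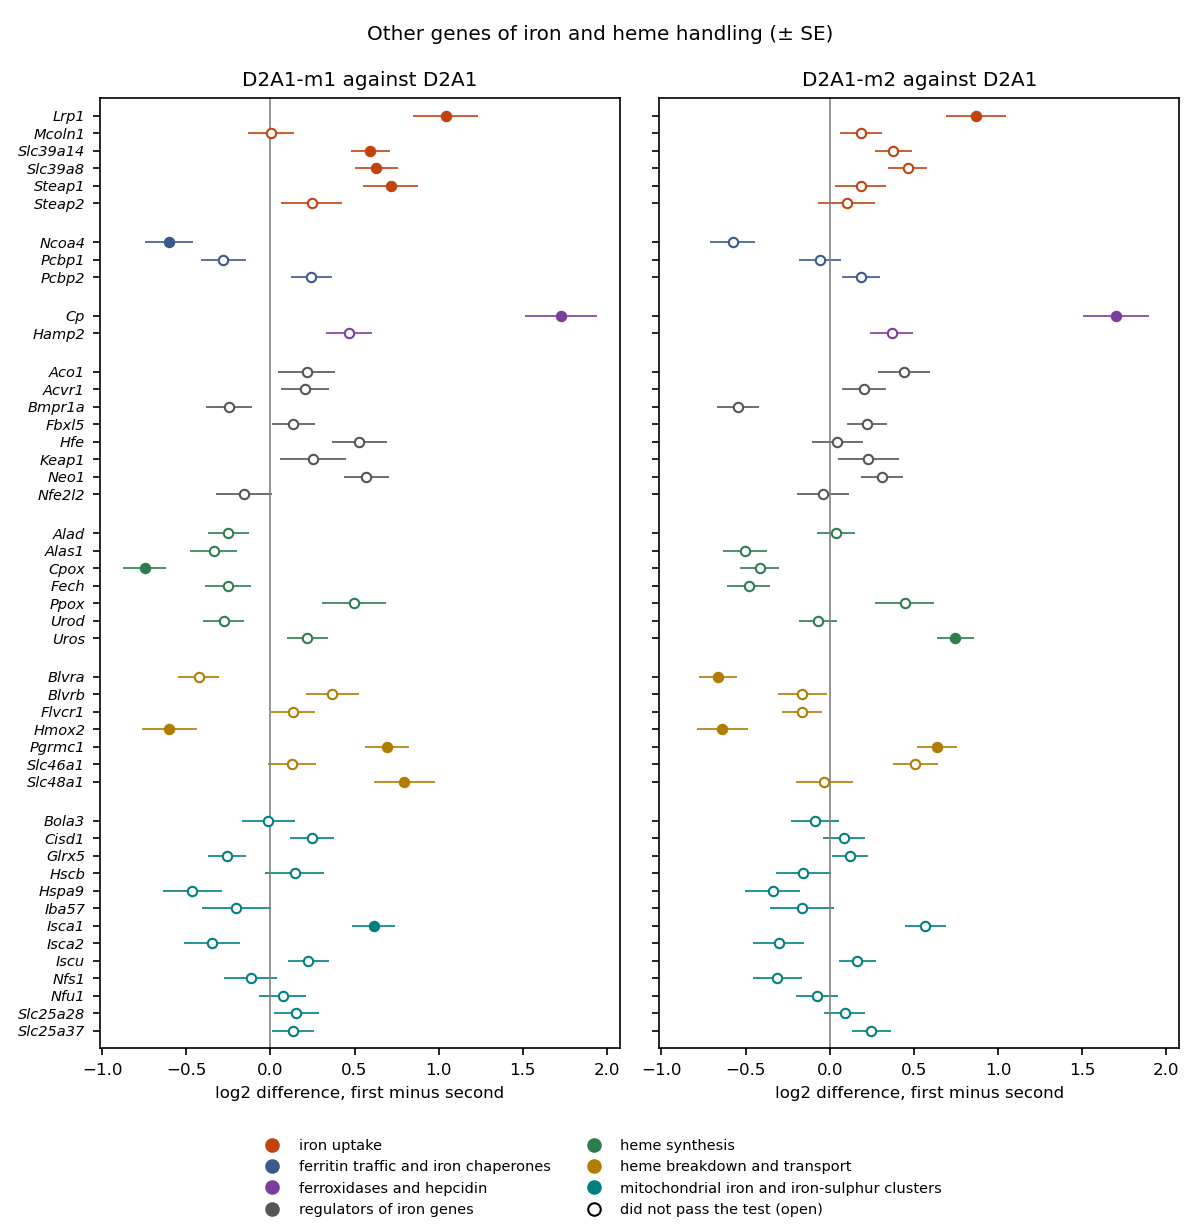
Log2 difference (horizontal axis, ± SE) of the 46 other genes of iron and heme handling in D2A1-m1 against D2A1 (left) and D2A1-m2 against D2A1 (right), grouped by role. Symbols are filled where the gene passed both limits, on adjusted p and on fold. Cp stood out on both sides at 1.73 and 1.70, the uptake genes lay at or right of 0 on both sides, and the regulators were all open.

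The count of companion genes in D2A1-m1 leaned on single arrays. It was 2 without D2A1-m1 replicate 1, 4 without D2A1-m1 replicate 2 and 6 without D2A1 replicate 3, against 11 with all arrays. In D2A1-m2 it was 12 without D2A1-m2 replicate 1, against 6. Genes of the list that were on the array but detected nowhere included the transferrin gene Trf, the hepcidin gene Hamp, the ferroxidases Heph and Hephl1 and the mitochondrial ferritin gene Ftmt, so their levels are not known from these arrays.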

How the data were processed

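The authors hybridised labelled RNA to MouseWG-6 v2.0 BeadChips and deposited bead intensity and a detection p-value for each probe and array, extracted with lumi (version not given in the sources used here). They also deposited processed values, close to a log2 scale, made by dropping probes with a detection p over 0.01 on all arrays, then variance stabilisation, robust spline normalization and batch correction with ComBat. Whether these were centred is not stated, and their medians lay between 7.83 and 7.84. They served as an alternative.

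Intensities were corrected by normexp with an offset of 16, quantile normalized and logged (neqc, limma 3.58.1, R 4.3.3). Probes detected on at least 1 of 8 arrays were kept (16462 of 45281), of which 14107 named 1 gene. Over the array, 34885 probes named 1 gene, 18 several and 10378 none. The probe of largest interquartile range stood for a gene, leaving 9017 genes. One limma model with line and batch (4 residual degrees of freedom) gave all 3 comparisons, with Benjamini-Hochberg adjustment and calls at 0.05 (adjusted p) with a change of 1.5-fold or more. The fit was tested on simulated data. The number of arrays limits the precision.

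The 9 members and the lists were chosen with earlier results of these data known. All members are named, with up to 8 companion genes called per comparison by size of difference, and the 5 genes most correlated with each member that differed at least 2-fold. The alternatives covered background, scaling, filter, probe, batch, replicate block, prior and test, and each replicate was left out in turn.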

Additional observations from a re-analysis of the deposited data

How the results depend on the processing

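Slc40a1, Scara5 and Slc11a2 kept their direction in all 23 alternatives in each comparison, and no called difference changed sign. Over these alternatives Slc40a1 lay between −2.96 and −1.16 in D2A1-m1 against D2A1, between −1.52 and −0.66 in D2A1-m2 against D2A1 and between −1.72 and −0.50 between the sublines, and Slc11a2 between 0.38 and 0.80 in D2A1-m1 against D2A1. Scara5 lay between 1.05 and 3.45, between 0.15 and 0.84 and between 0.90 and 2.71 in the same comparisons. Fth1, Ftl1, Hmox1, Tfrc, Steap3 and Ireb2, none of which passed with all arrays as normalized here, changed sign in at least 1 comparison under some alternative. Steap3 passed as lower in D2A1-m1 against D2A1 without D2A1 replicate 3. With median scaling another probe stood for Slc11a2, Tfrc, Fth1 and Ireb2. Scara5 and Steap3 lay near or under the detection limit in 1 or more lines, and the low signal limits what can be said of them. The cause was not tested for any of the changes below.

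Counts are given in the order D2A1-m1 against parental cells, D2A1-m2 against parental cells, then D2A1-m1 against D2A1-m2. With the deposited processed values they were 383, 391 and 97 genes, 2, 1 and 1 companion genes, and 2, 1 and 1 members. Batch 1 alone gave 168, 122 and 0 genes, 1, 0 and 0 companion genes and 2, 0 and 0 members. Batch 2 alone, also of 4 arrays, gave 1248, 1808 and 476 genes, 6, 11 and 2 companion genes and 3, 2 and 2 members. Without background correction there were 892, 921 and 255 genes, 5, 4 and 1 companion genes and 3, 1 and 2 members, and an offset of 50 gave 887, 917 and 252 genes with the same counts of companion genes and members. Without the batch term there were 876, 1291 and 70 genes and 7, 6 and 0 companion genes, and without the detection filter 214 genes, 0 companion genes and 1 member between the sublines. The methods' t-test at the methods' threshold gave 212, 483 and 65 genes, 1, 2 and 0 companion genes and 2, 0 and 0 members. After Benjamini-Hochberg it gave 509, 1116 and 21 genes, 3, 5 and 0 companion genes and 3, 1 and 0 members. Leaving out each array in turn gave 498 to 1475, 1134 to 1633 and 32 to 545 genes, 2 to 12, 5 to 12 and 0 to 1 companion genes, and 2 to 4, 0 to 2 and 1 to 2 members. In D2A1-m2 against D2A1 it was 0 members without D2A1 replicate 3 and 1, Slc40a1, without D2A1-m2 replicate 1. Between the sublines Scara5 alone passed without D2A1-m1 replicate 1 or 2 or D2A1-m2 replicate 1 or 2.

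Whether same-numbered arrays of different lines were paired could not be settled, since the fit left only 4 residual degrees of freedom. Deviations of same-numbered arrays from the line means correlated over 0.1 in 5 of 7 pairs and, with the batch removed, in 1 of 7, at 0.32. When the replicate block replaced the batch, counts were 1362, 1597 and 97 genes, 7, 8 and 0 companion genes and 3, 2 and 2 members. With the replicate block together with the batch they were 1365, 1636 and 464 genes, 10, 10 and 1 companion genes and 3, 2 and 2 members.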
